A study of Mus musculus with 24 samples.

Results

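The cytochrome P450 families 1 to 4 and the carboxylesterases are enzymes that oxidise and hydrolyse drugs, steroids, fatty acids and other lipids. Their genes were taken by name: every listed gene whose symbol is Cyp1 to Cyp4 with a subfamily letter and number, or Ces1 to Ces5 with its letter. The rule found 66 genes of the 34866 listed in any of the 4 tables, of which 51 were P450 genes and 15 carboxylesterase genes. It found 33 of 28774 listed genes in MC38, 25 of 27398 in LLC1, 21 of 28237 in AKR and 47 of 26146 in Hepa1-6. The reference annotation, GENCODE M21 on GRCm38, holds 94 genes of these names, and a gene without a read in all 6 libraries of a line has no row in that line's table.

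Bulk RNA-seq was made from 4 mouse tumour cell lines grown in culture. Per the labels these are MC38 (colon adenocarcinoma), LLC1 (Lewis lung carcinoma), AKR (esophageal carcinoma) and Hepa1-6 (hepatocellular carcinoma). In each line, cells with a guide RNA against B2m (sgB2m), the light chain of MHC class I, were compared with cells carrying a non-targeting guide (sgNT), with 3 libraries per group. The labels name no other allele, agent or time point, and do not say whether the edited cells were a clone or a pool, or whether the replicates were separate cultures, so the p-values measure the spread between these libraries, which may be technical.

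Counted reads ranged from 25 to 49.7 M per library. B2m fell in each of the 4 lines (log2 fold change -1.78 in MC38, -1.71 for LLC1, -1.57 for AKR and -1.35 for Hepa1-6). Of 12 hepatocyte markers, 10 reached 10 reads per 1000000 counted reads (RPM) in the Hepa1-6 controls, led by Afp, and 0 did in the other lines. Of 7 intestinal markers 0 reached that level in MC38, where Cdh17, Cdx2, Krt20 and Fabp2 had 0 reads in the controls, and 3 did in Hepa1-6, led by Cdh17 at 860 RPM. Of 6 squamous markers 1 did in AKR (Sox2, 12.9 RPM), where Krt5 and Krt14 had 0 reads, and 1 did in MC38 (Krt14, 55.2 RPM) and in Hepa1-6 (Krt5, 12.1 RPM). Of 6 alveolar markers Abca3 alone did in each line, at 48.7 RPM in LLC1, where Sftpa1, Sftpb, Sftpc and Nkx2-1 had 0 reads, and at 121 RPM in Hepa1-6. The highest leukocyte marker of the 5 in any line's controls was Itgam in Hepa1-6, at 0.0856 RPM.

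P450 enzymes are haem proteins of the endoplasmic reticulum that receive electrons from P450 reductase, the product of Por. Family 1 acts on aromatic hydrocarbons and is the textbook target of the aryl hydrocarbon receptor AHR. Families 2 and 3 include the main drug-metabolising and many steroid- and fatty-acid-metabolising enzymes of the liver, and family 4 hydroxylates fatty acids and eicosanoids. Carboxylesterases cleave ester bonds of drugs and of lipids such as triacylglycerols, and the liver and intestine are rich in them. In the mouse the Cyp2c, Cyp2d, Cyp3a, Cyp4f, Ces1 and Ces2 genes lie in clusters of close paralogs.

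Promoters are shown for 8 genes on which the results turn: 4 neighbouring Cyp2c genes called lower in Hepa1-6, 3 neighbouring Ces1 genes that differed between lines, and Cyp1a1, the gene with the highest level per length. Each is the RefSeq promoter on GRCm38.p6, from 250 bases before to 50 after the annotated start, written 5′ to 3′ on the gene's strand. Of the 66 genes 58 matched the table by symbol, with 64 promoters. Capitals mark the letters of 5 motifs searched on both strands, which are GCGTG (the core bound by AHR), GTTAAT (an HNF1 half-site), CAAAGNNCA (an HNF4-type site), TTGCNNAA (a C/EBP-type site) and TATAAA (the TATA box). In the promoters shown 0 pairs of motifs overlapped.
Cyp2c68, chr19:39741052-39741351, minus strand: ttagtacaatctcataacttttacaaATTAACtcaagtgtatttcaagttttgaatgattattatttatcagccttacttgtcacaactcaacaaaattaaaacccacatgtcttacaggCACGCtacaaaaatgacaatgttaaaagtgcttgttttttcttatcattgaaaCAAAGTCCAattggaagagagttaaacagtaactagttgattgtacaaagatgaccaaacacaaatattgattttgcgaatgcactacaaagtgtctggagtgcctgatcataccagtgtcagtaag
Cyp2c67, chr19:39648993-39649292, minus strand: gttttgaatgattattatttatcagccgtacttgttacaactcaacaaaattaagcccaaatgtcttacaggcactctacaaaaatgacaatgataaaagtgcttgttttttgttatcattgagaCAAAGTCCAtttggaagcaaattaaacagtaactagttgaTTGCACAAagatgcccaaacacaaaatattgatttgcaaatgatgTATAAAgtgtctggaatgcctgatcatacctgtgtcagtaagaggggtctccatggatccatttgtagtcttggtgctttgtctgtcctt
Cyp2c40, chr19:39812765-39813064, minus strand: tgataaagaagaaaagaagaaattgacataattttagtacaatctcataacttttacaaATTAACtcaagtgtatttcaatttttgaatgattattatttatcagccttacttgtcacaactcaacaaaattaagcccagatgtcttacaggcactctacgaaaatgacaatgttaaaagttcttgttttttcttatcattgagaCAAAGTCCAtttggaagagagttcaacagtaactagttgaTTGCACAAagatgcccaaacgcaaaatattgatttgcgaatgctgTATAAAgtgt
Cyp2c70, chr19:40187237-40187536, minus strand: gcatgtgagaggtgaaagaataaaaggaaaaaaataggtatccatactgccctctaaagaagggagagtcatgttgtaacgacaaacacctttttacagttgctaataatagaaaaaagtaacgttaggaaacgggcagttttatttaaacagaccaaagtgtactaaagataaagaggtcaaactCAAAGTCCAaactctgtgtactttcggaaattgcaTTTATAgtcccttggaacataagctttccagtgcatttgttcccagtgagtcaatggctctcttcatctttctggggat
Ces1a, chr8:93048143-93048442, minus strand: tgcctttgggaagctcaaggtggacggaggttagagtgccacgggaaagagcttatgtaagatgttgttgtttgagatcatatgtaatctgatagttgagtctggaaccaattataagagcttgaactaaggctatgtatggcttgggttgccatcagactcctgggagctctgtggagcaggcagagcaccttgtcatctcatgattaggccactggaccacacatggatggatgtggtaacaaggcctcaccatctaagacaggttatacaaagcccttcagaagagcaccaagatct
Ces1c, chr8:93131234-93131533, minus strand: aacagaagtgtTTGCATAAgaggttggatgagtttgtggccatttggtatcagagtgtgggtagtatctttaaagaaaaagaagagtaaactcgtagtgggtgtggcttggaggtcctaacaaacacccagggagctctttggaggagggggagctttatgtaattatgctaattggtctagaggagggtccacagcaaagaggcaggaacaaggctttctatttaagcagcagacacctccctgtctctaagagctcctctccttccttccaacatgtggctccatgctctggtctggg
Ces1g, chr8:93337160-93337459, minus strand: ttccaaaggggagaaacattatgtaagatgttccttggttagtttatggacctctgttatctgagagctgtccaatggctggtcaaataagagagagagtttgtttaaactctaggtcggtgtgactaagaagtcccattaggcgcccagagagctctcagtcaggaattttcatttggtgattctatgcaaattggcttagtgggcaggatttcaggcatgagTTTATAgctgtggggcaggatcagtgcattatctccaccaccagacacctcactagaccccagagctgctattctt
Cyp1a1, chr9:57697363-57697662, plus strand: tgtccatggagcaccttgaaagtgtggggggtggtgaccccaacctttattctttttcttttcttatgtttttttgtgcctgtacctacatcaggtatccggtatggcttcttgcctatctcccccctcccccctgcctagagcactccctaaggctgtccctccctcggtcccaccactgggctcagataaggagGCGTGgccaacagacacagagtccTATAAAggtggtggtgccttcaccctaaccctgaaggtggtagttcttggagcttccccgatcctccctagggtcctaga

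All 4 Cyp2c promoters held the same 9 letters, CAAAGTCCA, on the gene's strand. They began 77 bases before the start of Cyp2c68, 125 before Cyp2c67, 45 before Cyp2c40 and 64 before Cyp2c70. The motif CAAAGNNCA was present in 6.36% of the 32851 promoters of this length in the table and in 28.1% of the 64 promoters of the family. In an alignment with free ends, chosen after the end-to-end values were seen because the annotated starts are shifted against each other, the promoters of Cyp2c68 and Cyp2c40 were identical at 94.4% of 266 aligned bases. Cyp2c68 and Cyp2c67 were identical at 91.6% of 251, and Cyp2c67 and Cyp2c40 at 93.2% of 220. End to end the same pairs reached 75.1%, 65.9% and 53.9%, and Cyp2c70 between 44.9% and 49.3% with the other three. With free ends Cyp2c70 aligned with these over at most 4 bases. The Ces1 promoters were identical to each other at 67.5% to 68.8% of 245 to 253 bases with free ends, and at 49.0% to 51.5% end to end. Ces1a held 0 of the 5 motifs, and Ces1c a C/EBP-type match 239 bases before its start. Ces1g and Cyp2c70 held TATAAA only on the opposite strand, printed as TTTATA, 26 and 29 bases before their starts. The TATAAA of Cyp2c40 lay 41 bases into the annotated transcript. In Cyp1a1 the AHR core stood 54 bases and the TATA box 30 bases before the start. Over all promoters GCGTG was present in 32.4%, GTTAAT in 7.10%, TTGCNNAA in 10.8% and TATAAA in 13.6%, and over those of the family in 18.8%, 15.6%, 32.8% and 32.8%. These matches are letters in a window and do not show binding.

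Control levels were described first, to show which of these enzymes each line expresses. A level is given as reads per kilobase of exon and per 1000000 counted reads (RPKM), computed from reads recovered from the deposited values, as a mean ± SD over 3 sgNT libraries. The tables were normalised separately, so levels were set side by side between lines without a test. Of the 66 genes, 23 reached 1 RPKM in at least 1 line, 20 of them in Hepa1-6, 8 in MC38, 6 in LLC1 and 5 in AKR. The 4 genes above 1 RPKM in every line were Cyp4f13, Cyp4f16, Cyp4f17 and Cyp4v3, all of family 4.

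Hepa1-6 stood apart by the height of its levels as well as their number. Cyp1a1, which oxidises polycyclic aromatic hydrocarbons, was the highest member of any line at 90.5, 89.3 and 91.2 RPKM in the 3 control libraries. In the AKR controls Cyp1a1 lay at 0.254, 0.199 and 0.262 RPKM, in MC38 it had 0 reads in the controls, and in LLC1 it had no row. Cyp2c68 followed in Hepa1-6 at 54.2 ± 2.97 RPKM, then Cyp3a13 at 38.2 ± 0.82, Cyp2s1 at 32.6 ± 0.68, Ces2e at 17.2 ± 0.67 and Ces2g at 13.9 ± 0.39. The ranges of the 3 libraries did not overlap between neighbours in this order. From Cyp4v3 (7.45 ± 0.77) to Cyp2c70 (7.04 ± 0.68) and Cyp4f16 (6.12 ± 0.44), neighbouring ranges overlapped.

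The other 3 lines were led by different members. In MC38 Ces1a, of the Ces1 cluster on chromosome 8, was highest at 11.3 ± 0.67 RPKM. Cyp4f16 (6.50 ± 0.58), Cyp2j6 (5.93 ± 0.59) and Cyp4v3 (5.60 ± 0.29), a fatty acid hydroxylase, followed it with overlapping ranges. In LLC1 Cyp4f13 led at 6.14 ± 0.33, ahead of Cyp4f16 at 4.84 ± 0.5, Cyp4v3 at 4.26 ± 0.59, Ces1a at 3.11 ± 0.16 and Cyp4f17 at 2.79 ± 0.27. The ranges of Cyp4f16 and Cyp4v3 overlapped there, as did those of Ces1a and Cyp4f17. In AKR Cyp4f16 reached 13.1 ± 0.64, ahead of Cyp4f13 at 4.40 ± 0.34 and Cyp4f17 at 4.18 ± 0.043, whose ranges overlapped. Carboxylesterase reads were nearly absent from AKR, where 6 reads in the 3 controls and 0 in the 3 sgB2m libraries were counted over the family.

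**Figure D1:**
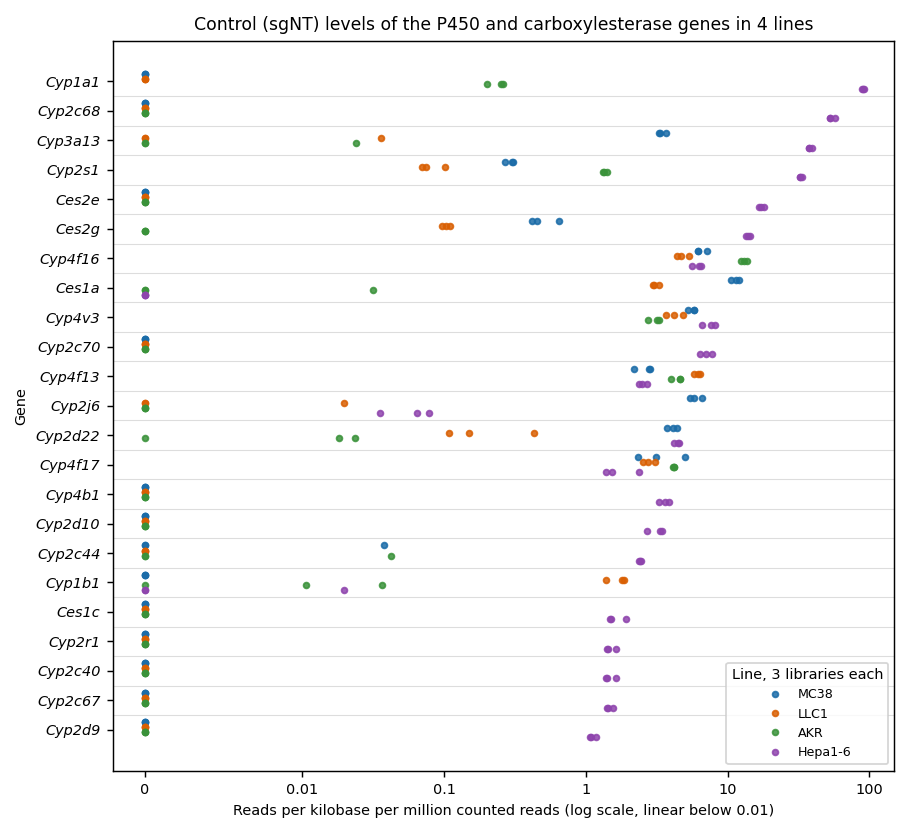
Control levels of the 23 genes that reached 1 RPKM in at least 1 line, on a log axis that is linear below 0.01, with 1 point per sgNT library and 1 colour per line (points at the same value cover each other). The Hepa1-6 points of Cyp1a1 lie at 89.3 to 91.2 RPKM, while the Cyp4f genes lie in a narrower band in all 4 lines.

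Summed over the family, the controls held 852 ± 4.72 RPM in Hepa1-6, while MC38 held 149 ± 4.6, AKR 94.7 ± 2.51 and LLC1 91.0 ± 3.97. The makeup of that sum differed. Cyp4f genes gave 78.7% of the family's reads in AKR, 56.9% in LLC1, 29.3% in MC38 and 4.27% in Hepa1-6. In Hepa1-6 Cyp1a gave 29.6%, Cyp2c 13.9%, Cyp3a 13.4% and Ces2 11.5%. In sgB2m cells the sum was 802 ± 1.96 RPM in Hepa1-6, 149 ± 2.42 in MC38, 115 ± 2.93 in AKR and 107 ± 1.31 in LLC1. The 3 values of each group did not overlap in Hepa1-6, AKR and LLC1, and did in MC38. In a bulk library, fewer cells that express a gene and less RNA per cell cannot be told apart.

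The effect of the B2m guide was then tested line by line on log2 values, and a gene was called at a Benjamini-Hochberg adjusted p under 0.05 over all genes tested in the line (limma, two-sided). Testing required a log2 value of 3.5 or more in any 3 of the 6 libraries. Of the 66 genes 34 passed in at least 1 line, 21 of them in a single line, and 5 passed in all 4 (Cyp4f13, Cyp4f16, Cyp4f17, Cyp4v3 and Cyp2s1). The other 32 were tested nowhere, and listed but untested genes had between 1 and 52 reads over the 6 libraries of a line. In all, 24 genes were called in at least 1 line, 18 of them in 1 line and 5 in 2. Cyp4f17 was the gene called in all 4. Values below are normalised counts per library, and changes are log2 fold changes of sgB2m minus sgNT ± SE, with 3 libraries per group.

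**Figure D2:**
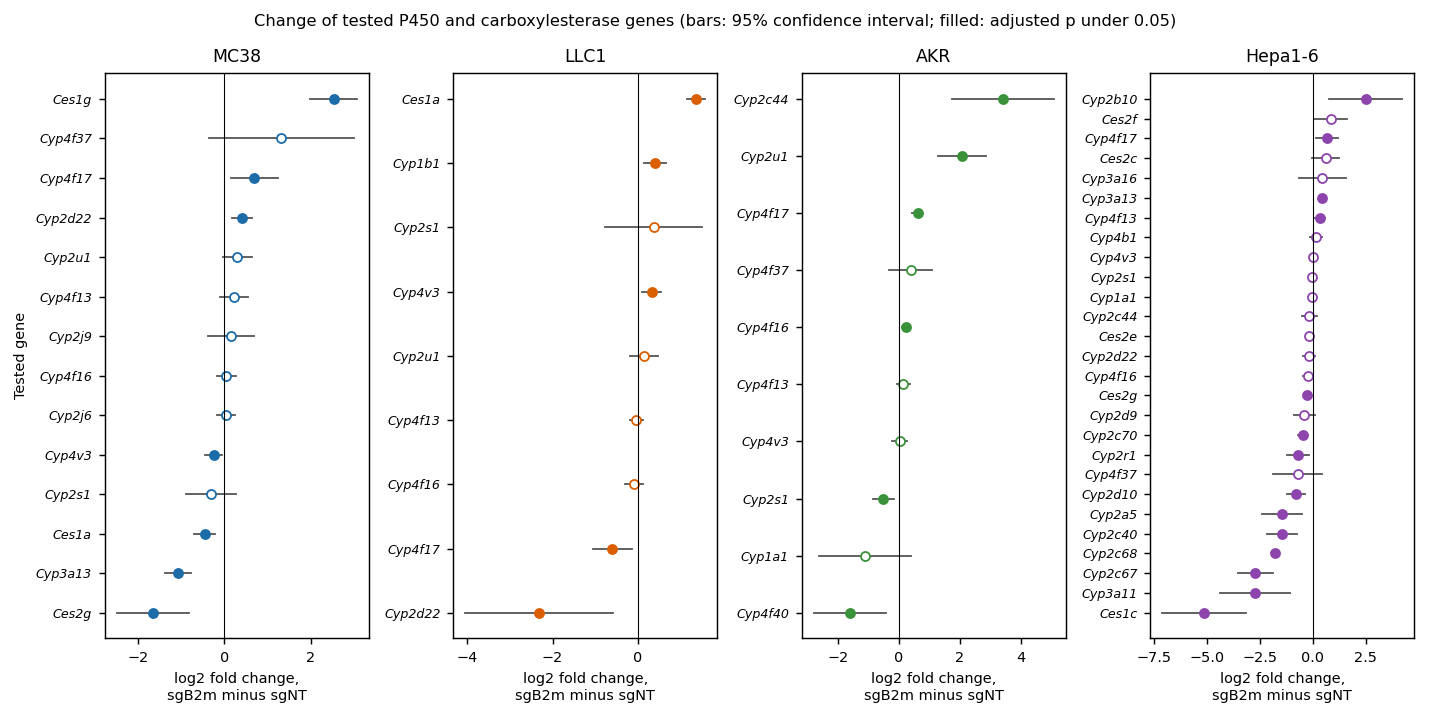
Log2 fold change of sgB2m minus sgNT for the tested family genes of each line, with 95% confidence intervals from limma and filled points for an adjusted p under 0.05 (the horizontal scales differ between panels). Ces1g lies at 2.52 in MC38, Ces1a at 1.37 in LLC1, Cyp2u1 at 2.07 in AKR, and Cyp2c68 at -1.77 and Ces1c at -5.15 in Hepa1-6.

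In Hepa1-6, the line with most of these enzymes, 4 of the 5 tested Cyp2c genes and the carboxylesterase Ces1c fell in sgB2m cells, while Cyp1a1 and Cyp2s1, near the top of the line's order of levels, were not called. Of 27 tested members 4 rose, 10 fell and 13 were not called. Over all genes tested in the line 37.8% were called, 18.6% upward and 19.2% downward, so the 51.9% of members called is read against a background where calls are common. The members' median log2 fold change was -0.17 and their median absolute change 0.47, beside -0.0093 and 0.21 over all genes. Here and in the other lines, members and all genes were not matched for expression level. Of the tested members Cyp3a11, which was called, and Cyp4f37 passed the filter only through the control group, where they were higher. Among the 25 members with a library past the filter's value in both groups 13 were called, 6 of them with a change of at least 2-fold, beside 37.6% and 3.32% of all such genes. Ces1c and Cyp2b10, among these 6, had a single such library in the group where they were lower. Cyp2c68, Cyp2c67 and Cyp2c40, also among them, share sequence and may share reads, so they may not be independent calls. Summed hepatocyte markers were lower in sgB2m (16195 to 16244 RPM against 17512 to 17639), and intestinal markers higher (1459 to 1484 against 1418 to 1447). Squamous markers (8.19 to 9.69 against 11.3 to 13.3) and alveolar markers (111 to 116 against 119 to 122) were lower. The mitochondrial share of reads was 4.10% to 4.32% in sgB2m and 4.97% to 5.18% in sgNT. The part of these differences in the members' changes was not tested.

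Cyp2c68 (ENSMUSG00000074882), a P450 of the fatty-acid- and steroid-oxidising Cyp2c cluster on chromosome 19, gave the fall with the smallest adjusted p among the members. Its normalised counts were 721, 803 and 819 in sgB2m and 2563, 2820 and 2596 in sgNT. Every sgB2m library lay below every control by a margin far wider than the spread within a group, a 3.41-fold decrease (-1.77 ± 0.064, adjusted p = 9.02e-12). Cyp2c67 counted 14.8, 12.2 and 5.65 against 69.1, 71 and 77.7 (-2.72 ± 0.39, adjusted p = 4.2e-05). Cyp2c40 counted 45.4, 37.5 and 16.9 against 94.6, 79.8 and 81.8 (-1.44 ± 0.33, adjusted p = 0.00303). In both genes the groups did not overlap, and sgB2m replicate 3 was lowest. Cyp2c69, a further neighbour, was below the filter with 10 reads in sgB2m and 42 in sgNT. These 4 genes are near-identical in part: of the 100-base windows of their transcripts, 34.4% in Cyp2c40, 23.7% in Cyp2c67, 19.8% in Cyp2c68 and 35.4% in Cyp2c69 occur in another gene, so single-gene values of the smaller members are uncertain. Summed, the 4 genes counted 828 ± 37 in sgB2m and 2830 ± 131 in sgNT (SD), a change of -1.77 ± 0.058 (adjusted p = 2.73e-12). Cyp2c68 alone had means of 781 and 2660, so the sum mostly repeats its change. It does not show that the smaller genes fell separately.

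Further along chromosome 19, Cyp2c70 fell to a smaller extent and Cyp2c44 was not called. Cyp2c70, a bile acid hydroxylase of the mouse liver that shares none of these windows, counted 273, 301 and 285 against 358, 435 and 398 (-0.47 ± 0.11, adjusted p = 0.00414), with no overlap. Cyp2c44, which lies apart from that cluster on the same chromosome at 44005022 to 44029208, counted 133, 137 and 129 against 146, 150 and 149. All 3 sgB2m libraries lay below the controls, yet it was not called (-0.16 ± 0.16, adjusted p = 0.488, 95% interval -0.49 to 0.18). Other genes within 2 Mb of Cyp2c68 had a median log2 fold change of 0.12 over 24 tested genes. The Cyp2c share of the family's reads was 13.9% in sgNT and 5.55% in sgB2m.

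Ces1c (ENSMUSG00000057400), the gene of the mouse plasma carboxylesterase, had the lowest log2 fold change of all 14910 genes tested in Hepa1-6. It counted 27.5, 0 and 0 in sgB2m against 126, 98.3 and 99.6 in sgNT (-5.15 ± 0.93, adjusted p = 0.000395). The mean was 11.8-fold lower, and with 2 libraries at 0 the fitted log2 value depends on the added constant of 1. It was -6.76 without sgB2m replicate 1, the library with the reads, and -4.34 without replicate 2 or without replicate 3. The weakest value over the settings tried was -3.135. Among the Ces2 genes, esterases known from the intestine and liver, Ces2g counted 1174, 1076 and 1238 against 1446, 1370 and 1435 (-0.29 ± 0.064, adjusted p = 0.0023), with no overlap. Ces2e had values of 1186, 1270 and 1100 against 1376, 1308 and 1290 and was not called (-0.16 ± 0.066, adjusted p = 0.0637). Ces2c and Ces2f were not called either, at 0.62 ± 0.3 and 0.86 ± 0.37.

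Cyp3a13 (ENSMUSG00000029727), a Cyp3a enzyme of liver and intestine, moved the other way in Hepa1-6. It counted 4431, 4075 and 4393 in sgB2m and 3161, 3282 and 3191 in sgNT, a 1.34-fold rise (0.42 ± 0.042, adjusted p = 1.01e-06). The groups were far apart relative to their spread. Cyp3a11, a main drug-metabolising P450 of the adult liver, was near the floor at 2.11, 0 and 7.9 against 20.9, 12 and 27.5 (-2.73 ± 0.78, adjusted p = 0.0113). Its call was lost without the intensity trend (adjusted p = 0.0677), and its change was -1.93 without sgB2m replicate 2 and -3.51 without replicate 3. Over the settings in which Cyp3a11 could be tested its change ranged from -3.51 to -1.33.

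Cyp1a1 (ENSMUSG00000032315) counted 7045, 6975 and 7181 in sgB2m and 7150, 7068 and 7287 in sgNT. The groups overlapped, and the gene was not called (-0.02 ± 0.03, adjusted p = 0.635, 95% interval -0.08 to 0.04). Cyp2s1, a P450 known as inducible through AHR, counted 4537, 4576 and 4468 against 4511, 4504 and 4722 (-0.02 ± 0.036, adjusted p = 0.762). Cyp4b1, Cyp2d22, Cyp2d9 and Cyp4v3 were not called, with log2 fold changes from -0.39 to 0.14, and neither were Cyp4f16 (-0.23), Cyp3a16 (0.45) and Cyp4f37 (-0.72). Ces2e, Cyp2d22 and Cyp4f16 crossed the threshold when 1 library was left out (sgB2m replicate 2, sgB2m replicate 3 and sgNT replicate 2), with adjusted p = 0.0257, 0.0469 and 0.047.

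The remaining calls in Hepa1-6 were of weakly expressed or moderately changed genes. Cyp2d10 counted 102, 80.1 and 75.7 against 156, 161 and 128 (-0.78 ± 0.2, adjusted p = 0.00515). Cyp2a5, the coumarin hydroxylase, counted 18, 7.09 and 12.4 against 25.5, 31.7 and 46.1 (-1.44 ± 0.44, adjusted p = 0.018). Cyp2r1, a vitamin D 25-hydroxylase, counted 42.3, 53.7 and 70 against 98.2, 86.3 and 85 (-0.72 ± 0.25, adjusted p = 0.0316). None of these 3 genes had overlapping groups. Cyp2b10, the classical target of the receptor CAR, rose to 30.6, 20.3 and 18.1 from 0, 15.3 and 3.24 (2.51 ± 0.81, adjusted p = 0.0236). Cyp4f13 rose by 0.35 ± 0.11 (adjusted p = 0.0238). Cyp4f17 counted 232, 378 and 175 against 139, 127 and 216, with overlapping groups (0.67 ± 0.25, adjusted p = 0.0441). Of the 100-base windows of Cyp2a5 and Cyp2d10, 12.1% and 11.7% occur in another gene, so their values are uncertain.

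Of these weaker calls in Hepa1-6 several rested on single libraries. Cyp2a5 was lost when sgB2m replicate 2 (-1.11, adjusted p = 0.0623) or sgNT replicate 3 (-1.21, adjusted p = 0.0951) was left out. Cyp2b10 was lost when sgB2m replicate 1 (2.29, adjusted p = 0.0773) or sgNT replicate 1 (1.49, adjusted p = 0.0724) was left out, and was 3.51 without sgNT replicate 2. Over the settings in which Cyp2b10 could be tested its change ranged from 1.255 to 3.51. Cyp4f13 was lost without sgB2m replicate 2, sgNT replicate 2 or sgNT replicate 3 (0.26, 0.30 and 0.35, with adjusted p = 0.118, 0.0801 and 0.0547). Cyp2r1 was lost without any library but sgB2m replicate 3, with values from -0.75 to -0.54 and adjusted p from 0.0603 to 0.119. Cyp4f17 was lost without sgB2m replicate 1 (0.72) or 2 (0.37) or sgNT replicate 1 (0.58) or 2 (0.52), with adjusted p from 0.0643 to 0.242. Its call was lost in 10 of the 15 other settings and left-out libraries tried, median centring and quantile normalisation among them.

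**Figure D3:**
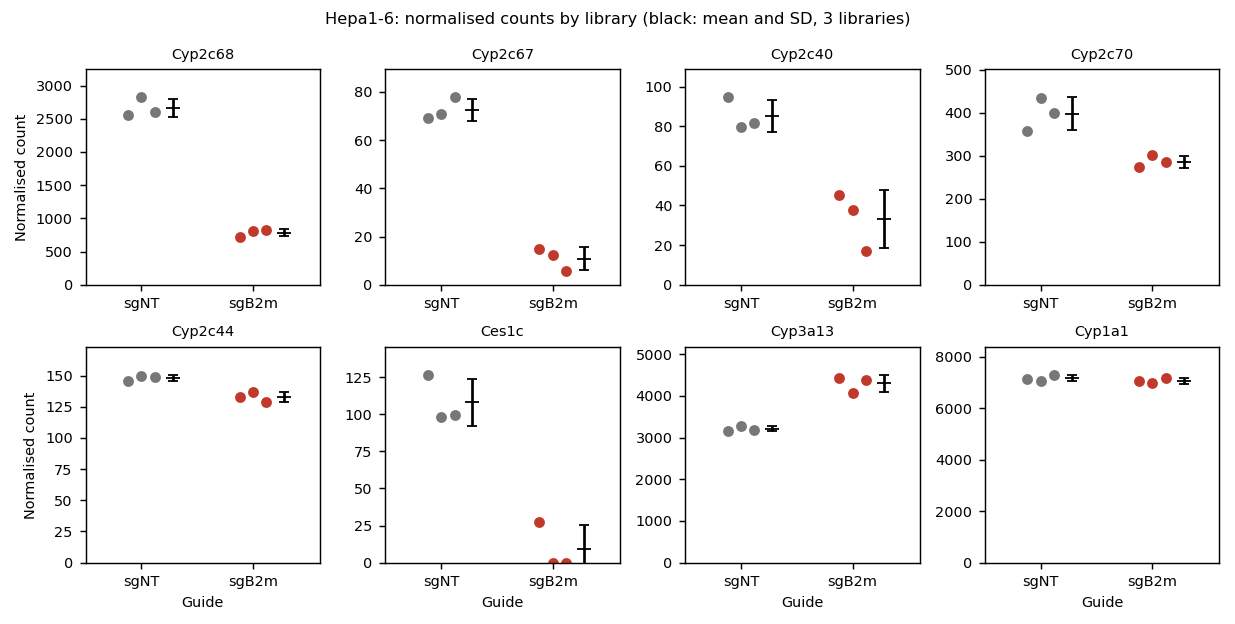
Normalised counts of 8 genes in the 3 sgNT and 3 sgB2m libraries of Hepa1-6, each panel on its own linear scale from 0, with mean and SD in black (the SD bar of Ces1c in sgB2m reaches below 0 and is clipped at the axis). The 3 sgB2m libraries lie below every control for Cyp2c68, Cyp2c67, Cyp2c40, Cyp2c70, Cyp2c44 and Ces1c and above them for Cyp3a13. For Cyp1a1 the ranges of the groups overlap.

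In MC38 the Ces1 genes diverged: Ces1g rose about 6-fold while its neighbour Ces1a, the most abundant member of the line, fell slightly. Cyp3a13 and Ces2g fell more than 2-fold. Of 14 tested members 3 rose, 4 fell and 7 were not called, beside 31.8% of all genes called (15.9% upward, 15.8% downward). The share of members called was 50%. Their median log2 fold change was 0.10 and their median absolute change 0.36, against -0.0030 and 0.23 over all genes. All 14 had a library past the filter's value in both groups, and 3 were called with a change of at least 2-fold, while of all such genes 31.1% were called and 4.85% with a change of that size. The summed squamous markers, led by Krt14, were at 55.0 to 56.5 RPM in sgB2m and 61.5 to 67.1 in sgNT, the alveolar markers at 25.4 to 27.3 and 23.3 to 24.9, and the mitochondrial share at 3.30% to 3.38% and 3.07% to 3.21%. Their part in these changes was not tested.

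Ces1g (ENSMUSG00000057074), a lipid-regulating hydrolase of liver and intestine, counted 149, 151 and 116 in MC38 sgB2m and 22.3, 24.9 and 22.3 in sgNT. The lowest sgB2m library was several times the highest control (2.52 ± 0.24, 5.97-fold, adjusted p = 4.55e-05). Ces1a (ENSMUSG00000071047) counted 678, 743 and 572 against 858, 904 and 962 (-0.46 ± 0.10, adjusted p = 0.00832), again without overlap. Ces1h, below the filter, had 34 reads in sgB2m, none of them in replicate 3, and 0 in sgNT. Its sgB2m mean was 4.19-fold higher than an assumed floor of 3 reads per library. This sets no minimum for the change, since sgB2m replicate 3 also had 0 reads. The summed Ces1 genes were not called (-0.18 ± 0.10, adjusted p = 0.211). Transcripts of Ces1a and Ces1g share 0% of their 100-base windows with another gene. The 49 tested genes within 2 Mb of Ces1g had a median log2 fold change of -0.04.

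Ces2g (ENSMUSG00000031877) counted 11.9, 22.8 and 26.6 in MC38 sgB2m and 83.5, 52.4 and 58.2 in sgNT (-1.66 ± 0.37, adjusted p = 0.00744). Cyp3a13 counted 188, 149 and 181 against 353, 383 and 349, a 2.1-fold decrease (-1.07 ± 0.14, adjusted p = 0.000291). Both genes were lower in every sgB2m library than in any control. Cyp2d22 rose from 527, 570 and 613 to 744, 682 and 850 (0.41 ± 0.10, adjusted p = 0.0143), a call lost without sgB2m replicate 3 (0.32, adjusted p = 0.0625). Cyp4f17 counted 578, 721 and 547 against 358, 262 and 572, with overlapping groups (0.69 ± 0.24, adjusted p = 0.0499). Cyp4v3 counted 676, 640 and 601 against 785, 778 and 716 (-0.25 ± 0.085, adjusted p = 0.0478). The calls of Cyp4f17 and Cyp4v3 were lost in 8 and 12 of the 15 other settings and left-out libraries tried. Cyp4f17 was lost without each library but sgNT replicate 3 (0.43 to 0.77, adjusted p from 0.0687 to 0.156), and Cyp4v3 likewise (-0.29 to -0.21, adjusted p from 0.0606 to 0.159). Cyp2j6, high in this line, counted 759, 782 and 795 against 848, 687 and 750 and was not called (0.04 ± 0.092, 95% interval -0.17 to 0.24). Nor were Cyp2u1 (0.30), Cyp4f13 (0.22), Cyp2j9 (0.15), Cyp4f16 (0.04), Cyp2s1 (-0.31) and the weakly expressed Cyp4f37 (1.31 ± 0.75).

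In LLC1 the change that stood out was a rise of Ces1a, the gene that fell in MC38. Ces1a counted 482, 513 and 503 in sgB2m against 185, 206 and 188 in sgNT, a 2.59-fold rise with no overlap and narrow spread (1.37 ± 0.10, adjusted p = 8.15e-08). Its antisense neighbour Gm45463 had 150 reads in sgB2m and 83 in sgNT, beside 1533 and 569 for Ces1a, and whether the counting used strand is not given in the sources used here. Of 9 tested members 3 rose, 2 fell and 4 were not called, while 42.4% of all genes were called (20.7% upward, 21.8% downward). The share of members called was 55.6%. Their median log2 fold change was 0.15, against 0.0092 over all genes. Without Cyp2d22, which passed the filter only through the controls, 4 of 8 members were called, and 1 of them, Ces1a, with a change of at least 2-fold, beside 42.3% and 3.68% of all genes with a library past the filter's value in both groups. The summed alveolar markers, led by Abca3, were at 51.3 to 55.2 RPM in sgB2m and 57.2 to 59.5 in sgNT, and their part in these changes was not tested.

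The other 4 calls in LLC1 were less firm. Cyp1b1, an oestrogen- and hydrocarbon-oxidising P450, counted 362, 367 and 332 against 297, 292 and 222 (0.40 ± 0.12, adjusted p = 0.0173). Cyp4v3 counted 524, 609 and 541 against 388, 445 and 511 (0.32 ± 0.10, adjusted p = 0.0218). In both, the highest control lay just below the lowest sgB2m library. Cyp4f17 counted 143, 120 and 247 against 222, 273 and 243, where sgB2m replicate 3 lay among the controls (-0.60 ± 0.21, adjusted p = 0.0328). Cyp2d22 was near the floor at 0, 6.89 and 9.57 against 16.3, 46.4 and 11.6 (-2.32 ± 0.81, adjusted p = 0.0327), and it passed the filter through the control group alone. Without the filter on low values or without the intensity trend all 4 calls were lost. Cyp1b1 was also lost when sgB2m replicate 2 (0.37, adjusted p = 0.0604) or sgNT replicate 3 (0.26, adjusted p = 0.0862) was left out, and Cyp2d22 without sgB2m replicate 1 (-1.25, adjusted p = 0.1), while it was -2.95 without sgB2m replicate 3. Cyp4v3 was lost without sgB2m replicate 2 (0.26), sgNT replicate 1 (0.22) or sgNT replicate 2 (0.32), with adjusted p from 0.0509 to 0.107. Cyp4f17 was lost without sgB2m replicate 1 (-0.51) or 2 (-0.38) or sgNT replicate 2 (-0.52) or 3 (-0.60), with adjusted p from 0.0641 to 0.157. Cyp4f13 and Cyp4f16, the leading members of the line, gave no call, with 95% intervals of -0.20 to 0.13 and -0.29 to 0.13, nor did Cyp2u1 (0.15) and Cyp2s1 (0.37). Ces2g was below the filter in LLC1, with 0, 2.95 and 0 in sgB2m and 10.2, 10.9 and 9.46 in sgNT.

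In AKR the changes lay among P450 genes, since no carboxylesterase passed the filter. Cyp2u1 (ENSMUSG00000027983), a fatty acid hydroxylase, rose from 7.71, 19.5 and 14.4 to 55.7, 64.3 and 53.6 (2.07 ± 0.35, 4.17-fold, adjusted p = 0.000761). Its lowest sgB2m library exceeded the highest control clearly. Its antisense partner 4930534D22Rik had 24 reads in sgB2m and 8 in sgNT, beside 176 and 42 for Cyp2u1. Of 10 tested members 4 rose, 2 fell and 4 were not called, beside 42.9% of all genes called (21% upward, 21.9% downward). The share of members called was 60%. Their median log2 fold change was 0.19, against 0.0065 over all genes. Cyp2c44 and Cyp4f40, both called, passed the filter only through the group in which they were higher. Of the other 8 members 4 were called, 1 of them, Cyp2u1, with a change of at least 2-fold, beside 42.6% and 4.45% of all genes with a library past the filter's value in both groups.

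Cell type markers and the mitochondrial share also differed between the AKR groups. The 7 intestinal markers summed to 29.9 to 35.1 RPM in sgB2m and 14.6 to 18.5 in sgNT, with Fabp2 at 0 in the controls. The 12 hepatocyte markers summed to 8.44 to 8.72 and 3.89 to 5.43 RPM, with Alb, Ttr, Apoa1, Fga, Fgb, Trf, Hnf4a and Tat at 0 in the controls, and the 6 squamous markers to 21.7 to 23.3 and 19.51 to 20.01 RPM. The mitochondrial share was 4.02% to 4.04% in sgB2m and 3.49% to 3.54% in sgNT. Their part in the AKR changes was not tested.

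The Cyp4f genes, which dominate the family in AKR, rose as a sum. Cyp4f17 (ENSMUSG00000091586) counted 707, 622 and 619 against 419, 416 and 427 (0.62 ± 0.081, adjusted p = 0.000124), with no overlap. Cyp4f16 counted 1512, 1558 and 1401 against 1245, 1208 and 1339 (0.24 ± 0.064, adjusted p = 0.0113), also without overlap. Cyp4f13 was not called (0.15 ± 0.093, adjusted p = 0.217) except without sgB2m replicate 1 (0.24, adjusted p = 0.0359), and the weakly expressed Cyp4f40 counted 8.96, 9.18 and 2.82 against 22, 13.6 and 31.8 (-1.61 ± 0.53, adjusted p = 0.0315), having passed the filter through the control group alone. The sum of all Cyp4f genes was 2865 ± 82.1 in sgB2m and 2345 ± 39.8 in sgNT (0.29 ± 0.046, adjusted p = 0.000488). Cyp2c44, an arachidonic acid epoxygenase, appeared at 15.9, 18.4 and 13.2 where the controls had 0, 0 and 2.89 (3.41 ± 0.76, adjusted p = 0.00401), and it passed the filter through the sgB2m group alone. Without sgNT replicate 3 its value was 4.06, and over the settings in which it could be tested it ranged from 1.42 to 4.06. Cyp2s1 fell from 216, 207 and 209 to 137, 124 and 190 (-0.51 ± 0.16, adjusted p = 0.025). The calls of Cyp2s1 and Cyp4f40 were lost in 7 of 15 and 4 of 11 other settings. Cyp2s1 was lost without each library but sgB2m replicate 3 (-0.52 to -0.38, adjusted p from 0.0522 to 0.0805), and Cyp4f40 without sgB2m replicate 3 (-1.14, adjusted p = 0.0893). Cyp1a1 (-1.11 ± 0.68), Cyp4f37 (0.39) and Cyp4v3 (0.04) were not called.

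**Figure D4:**
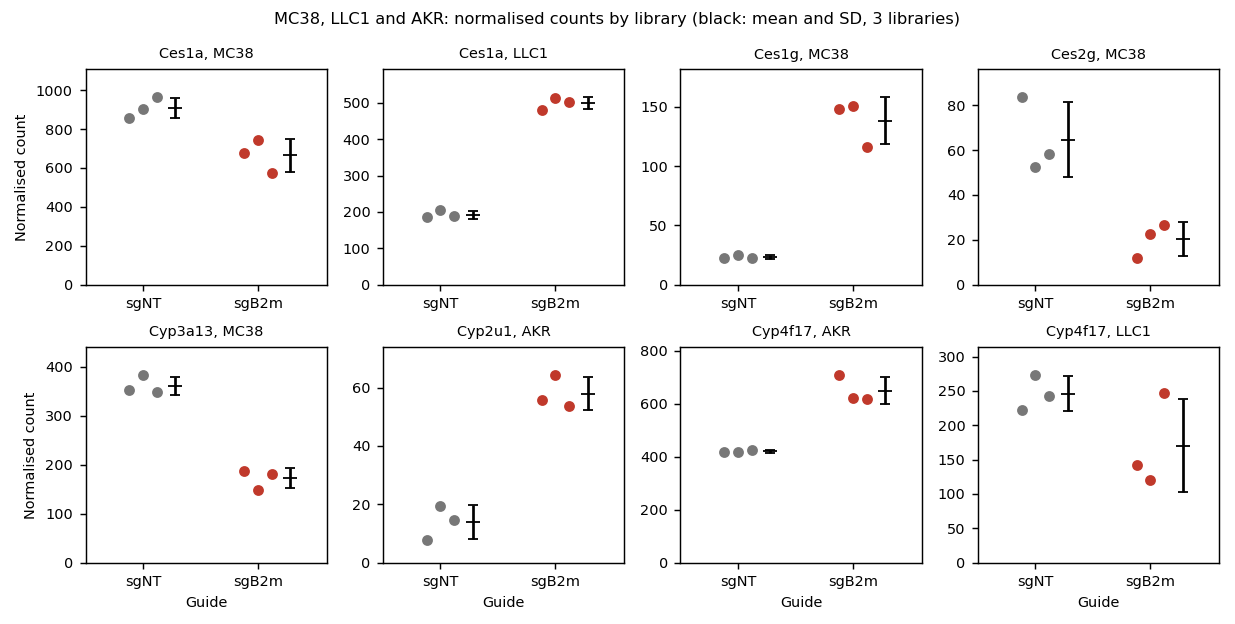
Normalised counts of 8 gene and line combinations in the 3 sgNT and 3 sgB2m libraries, each panel on its own linear scale from 0, with mean and SD in black. Ces1a lies lower in sgB2m in MC38 (572 to 743) and higher in LLC1 (482 to 513), and the sgB2m libraries of Cyp4f17 overlap the controls in LLC1 but not in AKR.

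Whether the change differed between lines was tested as an interaction of line and guide. Over the 12674 genes tested in all 4 lines 69.8% were called, and of the 5 members among them 3 were called: Cyp4f17 (adjusted p = 0.0109), Cyp4f16 (0.0134) and Cyp4v3 (0.0144). Cyp4f13 (0.188) and Cyp2s1 (0.247) were not. Cyp4f17 rose in MC38, AKR and Hepa1-6 by 0.69, 0.62 and 0.67 and fell by 0.60 in LLC1. The groups of Cyp4f17 overlapped in MC38, LLC1 and Hepa1-6. Summed over all Cyp4f genes the change was 0.27 ± 0.078 in MC38 (adjusted p = 0.0248), and it was not called in LLC1 (-0.13 ± 0.058, adjusted p = 0.085) or Hepa1-6 (0.13 ± 0.093, adjusted p = 0.294).

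Pairs of lines were compared for the genes tested in both, with adjustment over all 6 pairs, so that the background of calls was 37.9% in LLC1 minus MC38, 44.2% in AKR minus MC38, 35.6% in Hepa1-6 minus MC38, 40.3% in AKR minus LLC1, 44.8% in Hepa1-6 minus LLC1 and 40.5% in Hepa1-6 minus AKR. The pairs share lines and are therefore not independent. Ces1a differed by 1.83 ± 0.14 in LLC1 minus MC38 (adjusted p = 1.12e-07), Cyp3a13 by 1.49 ± 0.12 in Hepa1-6 minus MC38 (1.79e-07) and Cyp4v3 by 0.57 ± 0.14 in LLC1 minus MC38 (0.0049), each with calls of opposite direction. The single-line calls of Cyp4v3 were weak, lost in 12 of 15 other settings and left-out libraries in MC38 and in 5 of 15 in LLC1. Ces2g fell in MC38 and in Hepa1-6, and more in MC38 (difference of Hepa1-6 minus MC38 1.37, adjusted p = 0.00444). Cyp2u1 rose in AKR by 1.77 more than in MC38 (0.00185) and by 1.92 more than in LLC1 (0.000673).

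**Figure D5:**
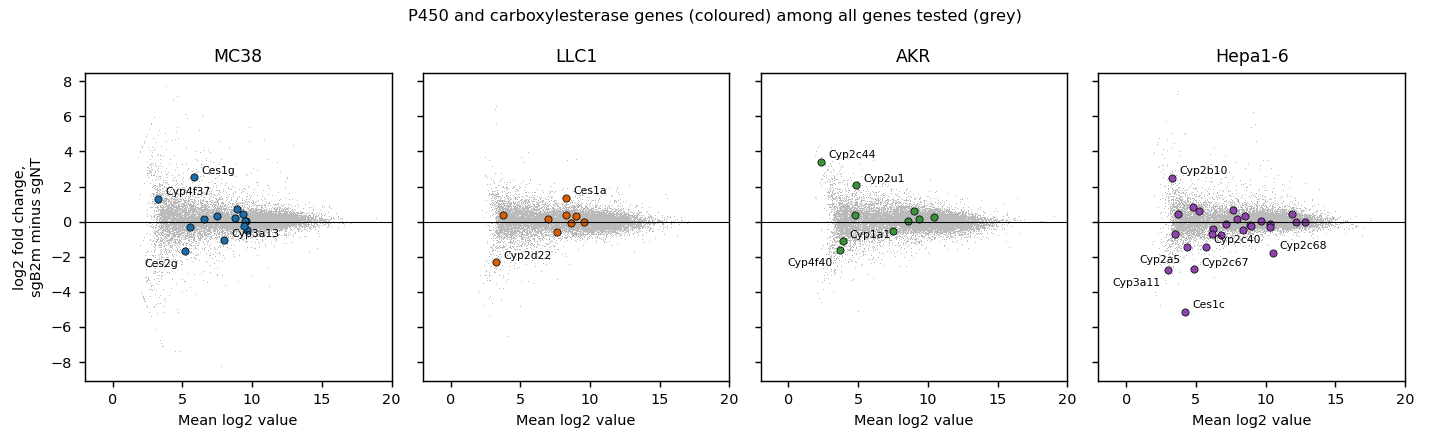
Log2 fold change of sgB2m minus sgNT against the mean log2 value over 6 libraries, for all genes tested (grey) and the family (coloured), with members named where the absolute change reached 1. Cyp2c68 in Hepa1-6 combines a change of -1.77 with a high mean value, whereas Ces1c, at -5.15, lies at a low one.

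Genes that work with these enzymes were read from lists of regulators, electron donors and related enzymes. Their counts stand beside 15.9% of all genes called upward and 15.8% downward in MC38, 20.7% and 21.8% in LLC1, 21% and 21.9% in AKR, and 18.6% and 19.2% in Hepa1-6. Ahr, the receptor that induces Cyp1 genes, rose 4.14-fold in MC38, where its means were 1475 ± 44 in sgB2m and 357 ± 44 in sgNT (2.05 ± 0.10, adjusted p = 5.8e-07). It rose by 0.37 in AKR and 0.33 in Hepa1-6 and fell by 0.58 in LLC1, all called. Of 6 tested AHR targets outside the family 5 rose in MC38 and 0 fell, with Ugt1a6b, a glucuronosyltransferase, at 1.63 and Aldh3a1, an aldehyde dehydrogenase, at 1.25. The median of that list was 0.84. The list includes Ugt1a6a, Ugt1a6b and Ugt1a7c, whose sharing of reads was not measured, so they may not be separate changes. Any part of Ahr in these changes was not tested. Cyp1a1 itself was not tested in MC38, where Cyp1a genes had 14 reads in sgB2m and 3 in sgNT. In Hepa1-6, where Cyp1a1 was not called, 1 of 6 such targets rose and 3 fell. In LLC1 1 rose and 1 fell of 6, and in AKR 1 rose and 1 fell of 4, the riser being Nqo1, a quinone reductase, at 1.25.

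The electron donors and haem supply moved differently between lines. Por was not called in MC38 (0.12 ± 0.061, adjusted p = 0.158), rose by 0.26 in LLC1 and 0.21 in AKR and fell by 0.36 in Hepa1-6. Of the 7 redox partners, which include Por, 1 rose and 6 fell in Hepa1-6, 3 rose in MC38 and 0 fell, 5 rose and 1 fell in LLC1, and 4 rose and 3 fell in AKR. Their median was -0.21 in Hepa1-6 and between 0.12 and 0.26 in the other lines, beside medians near 0 over all genes. Of the 8 haem synthesis genes 3 fell and 0 rose in Hepa1-6, 2 rose and 2 fell in MC38, and 4 rose and 1 fell in LLC1 and in AKR.

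Among xenobiotic and liver regulators, Nr1h4, the bile acid receptor FXR, rose in MC38 (1.69 ± 0.29) and fell in AKR (-1.15 ± 0.09), and Cebpa fell in LLC1 from low counts (-1.54 ± 0.49), having passed the filter through the control group alone. Of the list 3 of 6 tested rose in MC38 and 0 fell, 3 rose and 2 fell of 7 in LLC1, 1 rose and 1 fell of 7 in AKR, and 3 rose and 0 fell of 10 in Hepa1-6. Hnf4a, a liver regulator, was among the risers in Hepa1-6, where it counted 8517, 8292 and 8856 against 7153, 6851 and 7493 (0.26 ± 0.036, adjusted p = 4.27e-05), with no overlap. It was singled out after its values were seen, because its motif stood in the Cyp2c promoters. That motif also stood in promoters of other members, both genes that fell (Cyp2d10, Cyp3a11) and genes not called (Ces2e, Cyp4b1). Any part of Hnf4a in the Cyp2c changes was not tested.

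Conjugating and other xenobiotic enzymes gave different counts in each line. In Hepa1-6 2 of 18 tested rose and 10 fell, with a median of -0.32, and Fmo4, a flavin monooxygenase, fell from 21.8, 24 and 23.5 to 0, 0 and 7.9 (-3.54 ± 0.82, adjusted p = 0.00309), having passed the filter through the control group alone. In MC38 3 of 9 rose and 0 fell, among them Aldh1a1, a retinal dehydrogenase, at 3.48 ± 0.29 and Ephx1, the microsomal epoxide hydrolase, at 1.18 ± 0.092. Ephx1 rose in AKR by a like amount (1.23 ± 0.085), where 3 of 8 rose and 1 fell. In LLC1 5 of 11 rose and 0 fell, with Ugt1a1, the bilirubin-conjugating enzyme, at 2.23 ± 0.54.

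PPAR-alpha targets outside the family, which share that receptor with the Cyp4a genes, were also counted. In MC38 0 rose and 3 fell of 12, in LLC1 4 rose and 5 fell of 13, in AKR 1 rose and 6 fell of 10, and in Hepa1-6 6 rose and 3 fell of 13. Vnn1, a pantetheinase, had 0 reads in MC38 sgB2m against 23.3, 26.2 and 13.6 normalised counts in sgNT, the group through which alone it passed the filter. It fell in LLC1 (-1.99 ± 0.34) and rose in Hepa1-6 (1.30 ± 0.066). Pdk4 and Ehhadh fell in LLC1 (-1.62 ± 0.32 and -1.52 ± 0.44), and Angptl4 and Acot2 fell in AKR (-2.06 ± 0.29 and -1.14 ± 0.072).

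Among the other esterases and lipases, Bche, butyrylcholinesterase, rose in MC38 from 0, 0 and 7.18 to 30.4, 34.7 and 34.2 (4.08 ± 0.85, adjusted p = 0.00484), having passed the filter through the sgB2m group alone. In that list 1 rose and 3 fell of 10 in MC38, 2 rose and 3 fell of 8 in LLC1, 3 rose and 1 fell of 7 in AKR, and 2 rose and 2 fell of 9 in Hepa1-6. Of the P450 families outside the rule, 2 rose and 1 fell of 10 in MC38, 4 rose and 0 fell of 7 in LLC1, 2 rose and 1 fell of 9 in AKR, and 1 rose and 3 fell of 9 in Hepa1-6. Cyp51, the sterol demethylase, rose in LLC1 from 2275, 2362 and 2392 to 7205, 7532 and 7208 (1.64 ± 0.038, adjusted p = 4.29e-13). Cyp7b1, an oxysterol hydroxylase, rose in MC38 (1.88 ± 0.22), where the retinoic acid hydroxylase Cyp26b1 fell (-1.11 ± 0.10). The steroidogenic Cyp11a1 rose in AKR (1.89 ± 0.3) and fell in Hepa1-6 (-1.59 ± 0.36), and the vitamin D 24-hydroxylase Cyp24a1 fell in AKR (-1.56 ± 0.2).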

How the data were processed

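Gene expression was measured by RNA-seq in 24 libraries, 3 for each of 8 groups. For each line the authors deposited a table of normalised counts on the log2 scale, per the file headers. FastQC 0.11.5, STAR, DESeq2 and the build mm10 are named by the submitters' processing notes. The gene counter, its annotation and its strand setting are not given in the sources used here; libraries were strand-specific, per the labels' protocols. Every value was a whole read count within 0.05 reads, divided by 1 size factor per library, plus 1, on the log2 scale. The added 1 can shrink changes of weakly expressed genes. Where libraries of a group lie at 0, the log2 change can instead exceed the ratio of the means. For Ces1c in Hepa1-6 it was -5.15, beside means that differed 11.8-fold. Size factors were set within a line. A gene without reads in a line has no row.

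Within a line, genes that reached a log2 value of 3.5 in 3 or more of the 6 libraries were tested with limma 3.58.1 (R 4.3.3, intensity trend, no covariate, two-sided), with Benjamini-Hochberg adjustment over all of them. Differences between lines were tested as an interaction of line and guide. Levels used GENCODE M21 exon lengths. On data simulated for each of the 4 comparisons, 86% to 90% of genes changed 1.5-fold and 92% to 98% of those changed 2-fold were recovered. The changed genes were drawn from those above a minimum mean read count, with the same dispersion for all genes. These rates therefore do not apply to the weakly expressed members. Libraries of sgB2m and sgNT were not paired by their shared replicate numbers, since correlations of deviations were weak (-0.028 to 0.051). With 3 libraries per group these values cannot show that there was no pairing. The members and lists were chosen with earlier results of these data known. Named were members called in any line, the 5 highest control levels per line, members at 0 in a group with at least 30 reads in the other, B2m, Ahr, Por, and per list and line at most 3 called genes changed 2-fold or more; 1 gene that this rule names is not reported here. Hnf4a and some uncalled members were added after their values were seen. Alternatives were another pseudocount, 3 filters, 2 normalisations, no trend, voom, a replicate block and leaving out each library.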

Additional observations from a re-analysis of the deposited data

Results flagged for a closer look

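The response to the B2m guide differed between lines for 6 genes, by an interaction over all lines or by calls of opposite direction in a pair of lines. Calls are common in these tests: over 4 lines 3 of the 5 members tested were called beside 69.8% of all genes, and in single pairs 35.6% to 44.8% of all genes were called. Over 4 lines the interaction adjusted p was 0.0109 for Cyp4f17, 0.0144 for Cyp4v3 and 0.0134 for Cyp4f16. In LLC1 minus MC38, where one line's call was upward and the other's downward, the difference of log2 fold changes was 1.83 for Ces1a (adjusted p = 1.12e-07), 0.57 for Cyp4v3 (0.0049), -1.29 for Cyp4f17 (0.0124) and -2.72 for Cyp2d22 (0.0304). Cyp3a13 differed by 1.49 in Hepa1-6 minus MC38 (1.79e-07). Cyp4f17 differed by 1.22 in AKR minus LLC1 (0.00168) and by 1.26 in Hepa1-6 minus LLC1 (0.018). The p-values come from limma with adjustment over genes, and over all pairs for the pairwise values. Single-line calls of Cyp4v3 were lost in 12 of 15 other settings and left-out libraries in MC38 and in 5 of 15 in LLC1. Those of Cyp4f17 were lost in 8 of 15 in MC38, 6 of 15 in LLC1 and 10 of 15 in Hepa1-6. The libraries of Cyp4f17 overlapped between the guides in MC38, LLC1 and Hepa1-6, and Cyp2d22 had at most 46.4 normalised counts in any LLC1 library and passed the LLC1 filter only through the control group, where it was higher.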

How the results depend on the processing

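No direction of a called member was reversed under any setting tried. Of 32 calls 17 were kept in every setting and left-out library in which they could be tested, among them Ces1a, Ces1g, Ces2g and Cyp3a13 in MC38, Ces1a in LLC1, Cyp2u1, Cyp4f16 and Cyp4f17 in AKR, and Ces1c, Cyp2c40, Cyp2c67, Cyp2c68, Cyp2c70 and Cyp3a13 in Hepa1-6. The other 15 were lost in at least 1 setting, 14 of them when a library was left out. Without the intensity trend the members called went from 7 to 4 in MC38 and from 5 to 1 in LLC1. Leaving out 1 library gave 2 to 5 calls in LLC1 and 4 to 7 in MC38, with 4 without sgB2m replicate 3 of MC38. In LLC1 it gave 3 without sgB2m replicate 1 or sgNT replicate 1, and 2 without sgB2m replicate 2, sgNT replicate 2 or sgNT replicate 3. With the replicate number as a block, 6 members were called in MC38, 5 in LLC1, 5 in AKR, 13 in Hepa1-6 and 3 in the interaction, and of the pathway genes 27, 41, 32 and 44 in MC38, LLC1, AKR and Hepa1-6. Each LLC1 library correlated best with its own number, which held for 1 of 3 numbers in MC38 and AKR and 2 of 3 in Hepa1-6. With mitochondrial transcripts left out, the summed control level was 154 RPM in MC38, and 95.3 (LLC1), 98.2 (AKR) and 898 (Hepa1-6). Weakly expressed genes (LLC1 Cyp2d22 and Cyp2s1, AKR Cyp2c44 and Cyp4f40, Hepa1-6 Cyp2a5, Cyp2b10 and Cyp3a11) fell below the filter in some settings and gave no value there. Depth limits these values, which rest on few reads.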
